A study of Ovis aries and Mus musculus with 20 samples.

Results

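A set of 51 sheep genes stood higher in mesenteric fat than in the other visceral depots sampled, out of 20477 genes in the expression table. The genes were selected on their measured TPM, a length-corrected share of the transcripts in each library. The lowest of the 3 mesenteric TPM had to exceed 1.5 times the highest of the 6 TPM of the other depots, and the mean mesenteric TPM had to be at least 1. This minimum was met by 13602 genes, and the 51 members made up 0.375% of them. The libraries came from mesenteric adipose (MAD), greater omentum (GOM) and retroperitoneal adipose (RAD) of 3 adult Small-tail Han sheep, 2 years old, with 1 library per depot and animal. Total RNA was depleted of ribosomal RNA before library preparation. Library totals ran between 14305713 and 19966047 estimated counts in MAD, between 16298240 and 22249680 in GOM and between 16563898 and 17852676 in RAD.

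Adipose tissue stores triglyceride in adipocytes, beside vessels, stromal cells and immune cells. Mesenteric fat lies between the layers of peritoneum that carry vessels and lymphatics to the intestine, and lymph nodes are embedded in it. The greater omentum is a sheet of fat that hangs from the stomach and holds small immune cell clusters, and retroperitoneal fat lies behind the peritoneum around the kidneys. In whole tissue, fewer cells of a type and less RNA per cell cannot be told apart.

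The deposited tables identify genes by Ensembl sheep identifiers and do not pair them with names. Of the 20477 identifiers, 0 could be matched to a symbol here, so no role is given for any member, and the labelled depots could not be checked against marker genes of adipocytes, lymph node or mesothelium. Members other than 4 identifiers are called by their rank in the size of the gap, where rank 1 is the largest. Those singled out by rank were chosen after their values were seen.

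The rule found more genes for MAD than for either other depot. Put in its place, GOM gave 6 genes and RAD gave 6 genes. The mirrored rule, with every MAD library below every other library by the same factor, gave 414 genes. Single libraries weighed on the count: without MAD of sheep 3 the rule found 214 genes in place of 51, and it found 85 without MAD of sheep 1, 83 without MAD of sheep 2, 85 without GOM of sheep 1 and 87 without RAD of sheep 3. The rule itself sets these counts, so they are a description of the 9 libraries.

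**Figure D1:**
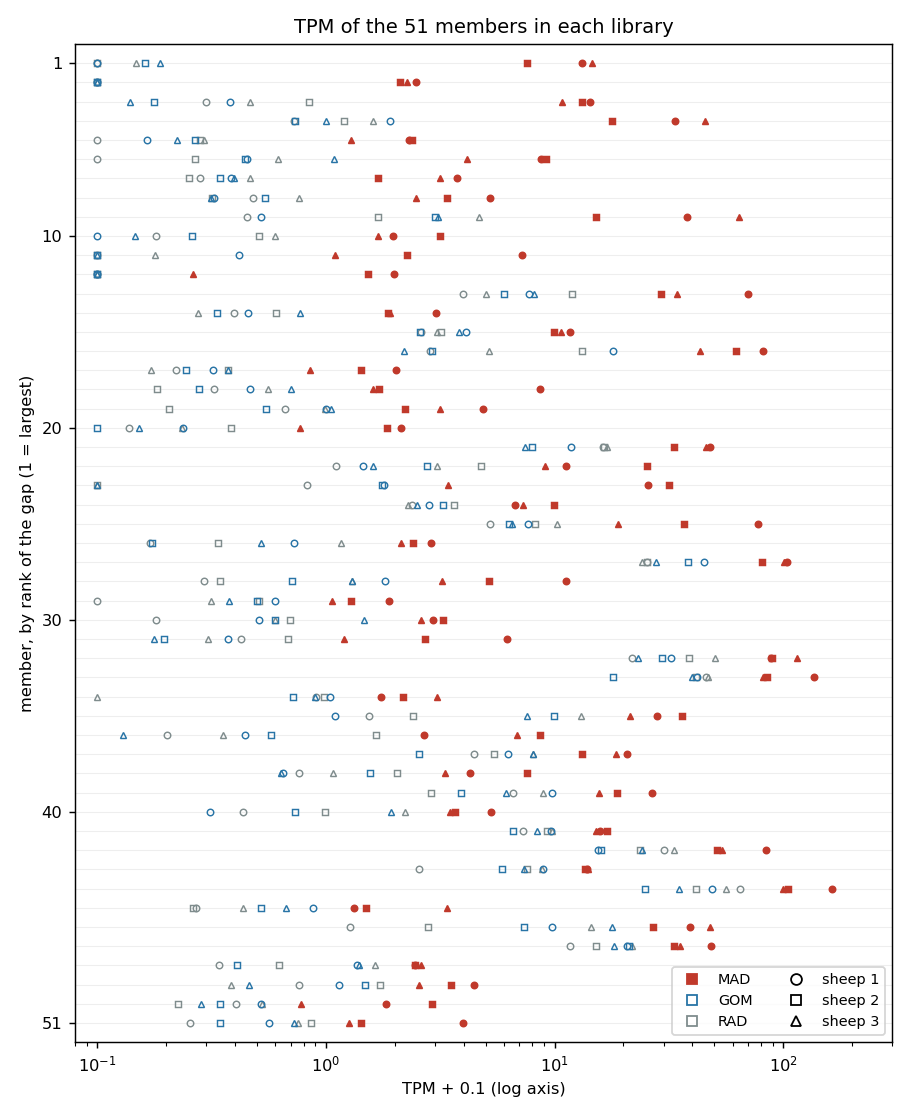
TPM + 0.1 (log axis) of the 51 members in the 9 libraries, 1 line per member, ordered by the gap. Filled symbols are MAD, open blue symbols GOM and open grey symbols RAD, and the shape gives the sheep; by the rule, filled symbols lie right of all open ones, and the width of the empty stretch is the gap.

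ENSOARG00020022879 had the largest gap. It stood at 13.0, 7.45 and 14.5 TPM in MAD of sheep 1, 2 and 3, against 0, 0.0623 and 0.0890 TPM in GOM and 0, 0 and 0.0471 TPM in RAD. These TPM rested on 317, 142 and 396 estimated counts in MAD, and on 4.02 counts in all of GOM and 1.00 in all of RAD. The gene was thus near absent outside MAD at this depth, and its lowest MAD library was 83.8 times its highest other library. ENSOARG00020009236 ranked 3 and showed the same shape at a similar level. It had 14.2, 13.0 and 10.7 TPM in MAD, against 0.280, 0.0777 and 0.0384 TPM in GOM and 0.198, 0.740 and 0.366 TPM in RAD, a ratio of 14.4. Its MAD libraries were close to each other, within a factor of 1.33, while its low values in GOM and RAD varied widely.

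The members ranked 5 to 8 were also low outside MAD, where their highest libraries stood at 0.194, 0.986, 0.363 and 0.662 TPM, and they had lower levels in MAD than those ranked 1 and 3. Ranks 4 and 9 combined a wide gap with higher levels in MAD. The member ranked 4 had 33.4, 17.7 and 45.4 TPM in MAD, against 1.80, 0.629 and 0.897 TPM in GOM and 0.627, 1.10 and 1.5041 TPM in RAD. The member ranked 9 had 37.9, 15.1 and 63.9 TPM in MAD, against 0.421, 2.90 and 2.99 TPM in GOM and 0.353, 1.59 and 4.57 TPM in RAD. Its MAD values rested on 107, 33.4 and 203 estimated counts, and those in GOM and RAD of sheep 1 on 1.04 and 1.06. The member ranked 4 had more counts in MAD, 766, 318 and 1169. Both members were highest in MAD of sheep 3 and lowest in MAD of sheep 2. For the member ranked 9, RAD of sheep 3 was also the highest library outside MAD.

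The highest level in MAD belonged to ENSOARG00020020146, with a mean of 122 ± 35.0 TPM in MAD, 36.2 ± 12.002 TPM in GOM and 54.0 ± 11.7 TPM in RAD (SD, n = 3 each). Its libraries stood at 163, 105 and 99.2 TPM in MAD, against 48.7, 24.8 and 35.0 TPM in GOM and 64.5, 41.5 and 56.1 TPM in RAD. It was thus well expressed in all depots and ranked only 44 by gap, at a ratio of 1.54. The member ranked 27 was of the same kind and held the most counts of all members, 14376 in MAD. It had 103.3, 80.4 and 101 TPM in MAD, against 44.8, 38.2 and 27.8 TPM in GOM and 25.3, 25.3 and 24.0 TPM in RAD.

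Most gaps were small. Of the 49 members with a value above 0 outside MAD, the ratio of the lowest MAD library to the highest other library had a median of 1.89 and ran between 1.52 and 83.8. The same ratio had a median of 0.622 over 13593 genes with a mean MAD TPM of at least 1. Counting the 2 members listed at 0 in all 6 other libraries, 20 members exceeded a ratio of 2, 12 a ratio of 3, 6 a ratio of 5 and 4 a ratio of 10. On the scale of log2(TPM + 0.1), the gap had a median of 0.87 and a range of 0.55 to 5.32, against a median of -0.68 over all genes with a mean MAD TPM of at least 1.

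Members just inside the threshold had ratios of 1.52, 1.52 and 1.53, and the nearest genes outside it 1.498, 1.495 and 1.47. At the minimum level, the lowest mean MAD TPM of members were 1.16, 1.31 and 1.33, and genes just below it that passed the ratio had means of 0.940, 0.890 and 0.771. Members and other genes thus adjoined at both limits. Of the 13593 genes, 579 (4.26%) had all 3 MAD libraries above all 6 others by any margin.

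**Figure D2:**
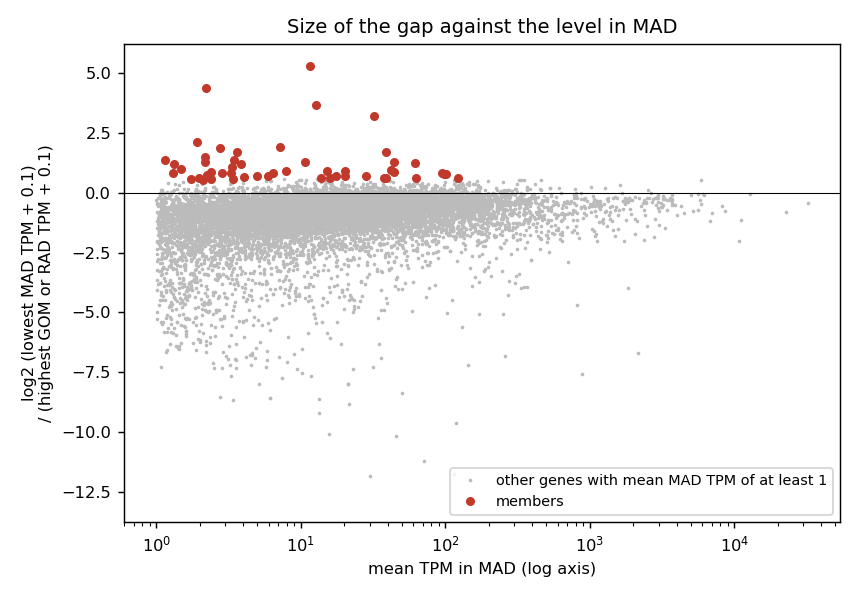
Gap, as log2 of (lowest MAD TPM + 0.1) over (highest GOM or RAD TPM + 0.1), against the mean TPM in MAD (log axis), 1 point per gene. The 51 members (red) lie above 0 by the rule, between 0.55 and 5.32, and spread over mean MAD levels of 1.16 to 122 TPM; grey points are the other genes with a mean MAD TPM of at least 1.

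Members were found at all but the highest levels. Their mean MAD TPM had a median of 6.43, against 15.9 over all genes with a mean of at least 1, and 34 members lay below 15.9 TPM. A mean of 1 to 3 TPM was seen in 16 members, 3 to 10 in 12, 10 to 50 in 17 and 50 or more in 6. Outside MAD the members ranged between genes that were nearly silent and genes that were expressed in all libraries. In all 6 GOM and RAD libraries, 21 members (41.2%) stayed under 1 TPM, which held for 0.610% of all genes with a mean MAD TPM of at least 1. Conversely, 18 members (35.3%) reached at least 1 TPM in all 6, against 89.4% of those genes. The other 12 members were above 1 TPM in some of the 6 libraries and below it in others. The minimum applies to MAD alone, so the rule itself admits genes of the silent kind.

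Estimated counts, which kallisto obtains by sharing ambiguous reads among transcripts, gave the depth behind these TPM. Close paralogs can exchange reads in this step, and which members have any is not known without names. Over the members, the counts summed over the 3 MAD libraries had a median of 462 and ran between 8.13 and 14376. The sums over 3 libraries had a median of 58.3 in GOM and 49.6 in RAD. In each MAD library, 46 members reached at least 10 counts, 23 at least 100 and 4 at least 1000. The counts were not an independent readout of the TPM: in the 14745 genes with at least 1 count in all libraries, counts per TPM kept 1 ratio between genes over the 9 libraries, within a relative spread of 1.11e-07.

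The members with few counts carried the least certain gaps. In all, 6 members had under 10 counts in GOM and RAD together. The member ranked 2 had 3.09, 2.04 and 3.15 counts in MAD and was listed at 0 in the 6 others. Against a floor of 3 counts over the 6 libraries, its observed MAD counts stood 5.34-fold higher per count of the library. The member ranked 12 had 51.2, 30.3 and 4.94 counts in MAD and was also listed at 0 elsewhere, 55.8-fold above the same floor. Its 3 MAD libraries disagreed by a factor of 11.6, the widest spread of any member. The member ranked 34 had only 2.03, 2.00 and 4.10 counts in MAD, against 1.01, 1.02 and 0.899 counts in GOM and 1.05, 1.04 and 0 counts in RAD, so its place rests on single reads. The floor covers counting error in GOM and RAD only, and the MAD counts are taken as observed.

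**Figure D3:**
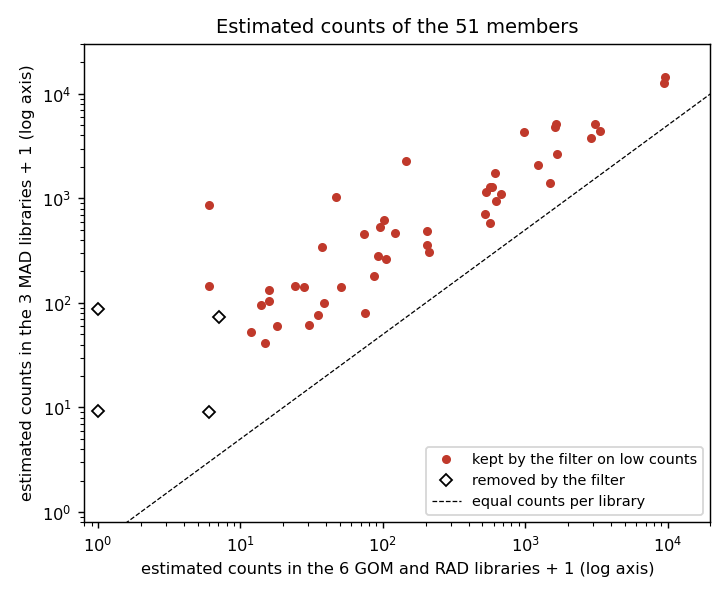
Estimated counts of the 51 members summed over the 3 MAD libraries against the sum over the 6 GOM and RAD libraries, each with 1 added (log axes). The dashed line marks equal counts per library; all members lie above it, and the 4 open diamonds at the lower left are those that a filter on low counts removed.

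Together the members took a small share of each library. They held 0.168%, 0.132% and 0.138% of the estimated counts in MAD of sheep 1, 2 and 3, against 0.0452%, 0.0355% and 0.0367% in GOM and 0.0426%, 0.0437% and 0.0442% in RAD. Their summed TPM were 1299, 940 and 983 in MAD, against 318, 229 and 271 in GOM and 264, 292 and 359 in RAD. No library of GOM or RAD came near a MAD library in either sum, which the rule brings about.

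By the rule, all 3 MAD libraries of a member stood above the other depots. How high they stood differed between them. The highest MAD library exceeded the lowest by a median factor of 1.88 over the members, against 1.63 over all genes with a mean MAD TPM of at least 1. Under 1.5-fold spread was seen in 13 members, and over 3-fold spread in 12 (23.5%, against 11.7% of those genes). The coefficient of variation had a median of 31.8%, against 24.8%. The genes compared were not matched on level: the median mean MAD TPM was 6.43 in members, against 15.9. Whether level or low counts account for the wider spread was not tested. The tightest member, ranked 43, had 13.8, 13.5 and 13.8 TPM in MAD. Among the loosest, the member ranked 23 had 25.6, 31.5 and 3.30 TPM in MAD, and the member ranked 18 had 8.51, 1.601 and 1.51 TPM. The first was carried by sheep 1 and 2, but rested on only 34.5, 33.2 and 4.99 estimated counts. It was also removed by the filter on low counts. The second, carried mainly by sheep 1, rested on 107, 15.7 and 21.3 counts.

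MAD of sheep 1 held the highest MAD value for 30 members (58.8%), MAD of sheep 2 for 12 (23.5%) and MAD of sheep 3 for 9 (17.6%). The same order held among all genes with a mean MAD TPM of at least 1, at 55.5%, 22.9% and 21.6%. MAD of sheep 3 held the lowest value for 29 members (56.9%), against 63.3% of those genes. After each library was rescaled by its median ratio over genes, a step chosen after seeing the data, sheep 1 held the highest MAD value for 24 members, sheep 2 for 11 and sheep 3 for 16. Over all genes with a mean MAD TPM of at least 1 these shares were then 37.3%, 22.8% and 39.8%. Which sheep led thus depended on the scaling over those genes, while sheep 1 led among the members on both scales. The scale factors ran between 0.886 and 1.16, too close together to undo a ratio above 1.5. By the rule, then, the lowest MAD library of all 51 members exceeded their highest other library after rescaling too. The factor was at least 1.29. In counts scaled by TMM library sizes (edgeR's trimmed mean of M-values), the smallest such factor was 1.30, and 40 members kept a factor above 1.5.

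**Figure D4:**
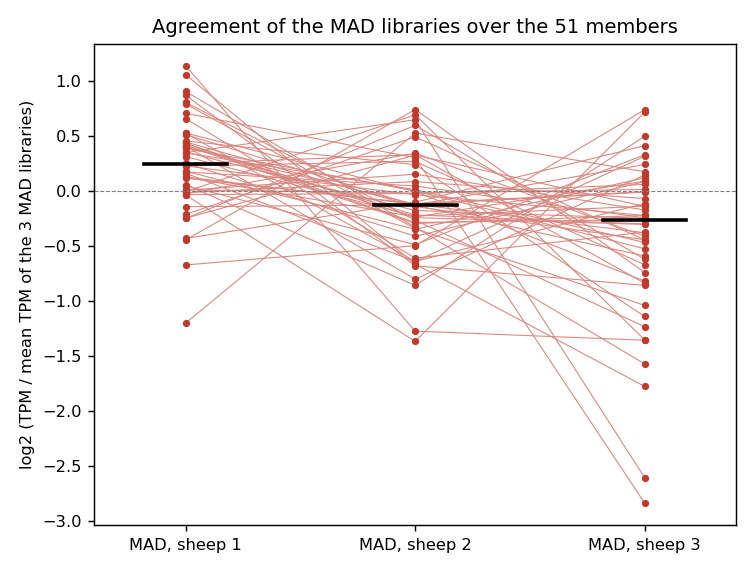
Log2 of each member's TPM in a MAD library over its mean in the 3 MAD libraries; thin lines join the values of 1 member, and black bars are medians over the 51 members. Values scatter around 0 with the highest median in sheep 1, and the 2 points far below the rest in sheep 3 are the members ranked 12 and 23. These points rest on 4.94 and 4.99 estimated counts.

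Within each animal the distance between depots varied. The median member was 6.19-fold higher in MAD than in GOM of sheep 1, 5.15-fold in sheep 2 and 3.41-fold in sheep 3, on TPM + 0.1. Against RAD, these medians were 12.1-fold, 4.73-fold and 3.25-fold. These distances hold differences between whole libraries. Over all genes with a mean MAD TPM of at least 1, the median log2 difference in sheep 1, 2 and 3 was 0.09, 0.34 and -0.08 for MAD over GOM and 0.37, 0.09 and -0.20 for MAD over RAD, so sheep 3 was lowest there too. The library that came closest to MAD was RAD of sheep 3 for 17 members and RAD of sheep 2 for 11. It was GOM of sheep 3 for 8, RAD of sheep 1 for 1 and GOM of sheep 2 for 0. GOM of sheep 1 was listed for 14. These include the 2 members at 0 in all 6 libraries, for which no library was closest. In single members the animals could be ordered otherwise. The member ranked 16 had 81.2, 62.1 and 43.1 TPM in MAD, against 17.9, 2.81 and 2.09 TPM in GOM and 2.75, 13.0 and 5.08 TPM in RAD, so GOM of sheep 1 and RAD of sheep 2 stood apart from their groups.

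The members were next read in a test across all genes. The edgeR quasi-likelihood test with Benjamini-Hochberg adjustment covered 14565 genes, and its filter on low counts kept 47 of the 51 members. For MAD against GOM and MAD against RAD the rule used the same values, so the calls are a description of the members. In MAD over GOM, 31 members were called higher at an adjusted p under 0.05, where 1.61% of all genes tested were. In MAD over RAD, 20 members were called higher, where 0.33% of genes were. These comparisons share the MAD libraries. The fitted log2 fold changes of the members had a median of 2.25 over GOM and 2.56 over RAD, against 0.03 for all genes in both.

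Calls and membership were different sets. Of 27 genes called higher in MAD over both other depots, 18 were members. The other 9 had ratios between 1.05 and 3.21, and 1 of them had a mean MAD TPM under 1. Conversely, 14 of the 47 members tested were called in neither comparison. The main model held no term for the animal, so these calls do not use the pairing of depots within sheep. With the animal as a replicate block, 36 members were called in MAD over RAD rather than 20. Shares over all genes are not given for this block or for the next fits. Leaving out single libraries lowered this count to 6 without RAD of sheep 1, 9 without RAD of sheep 2, 11 without RAD of sheep 3, 10 without MAD of sheep 1 or of sheep 2, and 12 without GOM of sheep 3. The count in MAD over GOM came down to 19 without GOM of sheep 2, 16 without GOM of sheep 3, 18 without MAD of sheep 1 and 15 without MAD of sheep 2.

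The difference between GOM and RAD was not set by the rule, which puts the same ceiling on both depots. With edgeR, 0 of 47 members passed an adjusted p of 0.05 in GOM over RAD, where 0.0343% of all genes tested (5 genes) did. At that share, a count of 0 is no result about the members. At an unadjusted edgeR p under 0.05 there were 6 members (12.8% of those tested), against 521 of all genes tested (3.58%). The members' count was 3 without GOM of sheep 3, 3 without RAD of sheep 2, and 10 with the replicate block. DESeq2 called 0 members, where it called 95 genes, and had 8 members at an unadjusted p under 0.05. The share of all genes below this p is given for the main edgeR fit alone, so the other counts have no background. Some members passed the filter on low counts only through MAD, where the rule makes them high, and have a handful of counts in GOM and RAD. The size and spread of the members' GOM over RAD fold changes were therefore not set against those of all genes. Nothing is read from the shares with a low unadjusted p either. The fitted value was positive in 27 members and negative in 20. In TPM, all 3 GOM libraries lay below all RAD libraries in 1 member and above them in 2, or 5.88% of members, against 5.02% of genes with a mean MAD TPM of at least 1.

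The member with the lowest p in GOM over RAD was the one ranked 21. It had 11.7, 7.83 and 7.34 TPM in GOM, against 16.2, 16.3 and 16.8 TPM in RAD, while MAD stood at 47.6, 33.1 and 45.7 TPM. The depots did not overlap, and the 3 RAD libraries were almost level. Its log2 fold change was -0.87 ± 0.21 (SE), with an edgeR adjusted p of 0.578, so the difference did not pass over all genes. ENSOARG00020022048 had the most negative fitted value, -1.88 ± 0.90 (SE), at an edgeR adjusted p of 1.00. It had 0, 0.159 and 0.0469 TPM in GOM, against 0.0809, 0.409 and 0.497 TPM in RAD, and 1.87, 3.04 and 1.59 TPM in MAD. GOM and RAD overlapped, on 5.93 and 21.0 counts in all. The next was ENSOARG00020009236, at -1.70 ± 0.60 (SE) and an edgeR adjusted p of 1.00, on 10.9 counts in GOM and 35.1 in RAD. ENSOARG00020020146 had -0.60 ± 0.26 (SE), also at an adjusted p of 1.00, and for ENSOARG00020022879 the 5.02 counts in GOM and RAD together were too few for a comparison.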

How the data were processed

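Expression was analysed in 9 RNA-seq libraries, from MAD, GOM and RAD of 3 sheep, grouped by their labels. The authors deposited a table of TPM and a table of raw estimated counts for the same genes. They had quantified reads with kallisto (0.43.0 in the submitters' processing notes) against Ensembl's sheep annotation. TPM are scaled to 1 total per library and keep no depth. Members were found from TPM. For the tests, the estimated counts were rounded to integers. The edgeR 4.0.16 model (R 4.3.3, TMM library sizes) held the 9 libraries of all depots and left 6 residual degrees of freedom. Its p-values were adjusted by Benjamini-Hochberg over all genes tested, at a threshold of 0.05. Standard errors are the fold change over the root of its F statistic. The model held no term for the animal, so its calls and standard errors do not use the pairing. Alternatives were DESeq2 1.42.0, limma 3.58.1 on log TPM with a pseudocount of 1 or 0.1, other size factors, no filter on low counts, an animal block, other thresholds and leaving out each library. Library totals of 14305713 to 22249680 limit the precision of low members.

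The study took the 3 depots from the same sheep, so equal numbers pair libraries. Deviations from depot means correlated at 0.403 on average within animals (0.0637 to 0.613, 9 pairs) and -0.203 between them (18 pairs). The value between animals largely follows from the one within, since deviations from a mean sum to 0. The model was tested on simulated data. In the simulation of GOM against RAD over 14408 genes, 24% of 2-fold and 76% of 4-fold changes were recovered, with 5 false calls. For 8-fold and 16-fold changes, 94% and 80% were recovered. Simulated levels were means over all 9 libraries, without an animal effect. The rates therefore do not carry over to the members, which are lower in GOM and RAD.

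Identifiers were named by a rule: the member with the largest gap, the one with the highest MAD mean, and the 2 with the most negative GOM over RAD fold change. Members and lists were chosen with earlier results of these data known. Hi-C files were not used here, and genes were not placed on the sheep assembly.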

Additional observations from a re-analysis of the deposited data

How the results depend on the processing

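The number of members followed the rule's limits. It was 161 at a ratio of 1.2, 20 at a ratio of 2, 12 at a ratio of 3, 79 with no minimum level and 27 with a minimum mean of 5 TPM. Leaving out a library can only loosen the ratio, and gave 54 to 214 members, with 85 without MAD of sheep 1, 83 without MAD of sheep 2, 214 without MAD of sheep 3, 85 without GOM of sheep 1 and 87 without RAD of sheep 3. TMM-scaled counts (CPM) gave 47 members, 37 of them among the 51, and rescaled TPM, chosen after seeing the data, gave 49, with 41 among the 51. The median gap of 0.87 moved between 0.64 and 1.11 over its alternatives. Members called in MAD over GOM numbered 15 to 29 with a library left out, and 39 with the replicate block. In MAD over RAD they numbered 36 with the replicate block, 41 with DESeq2, where 908 genes were called, and 6 to 22 with a library left out. Fewer samples enter the fits with a library left out. Shares over all genes are not given here for those fits, for the block or for DESeq2. The rule used the same values, so nothing is read from these counts. In GOM over RAD, 0 members were called under every alternative run, the replicate block included, and 3 to 10 had an unadjusted p under 0.05. No share of all genes is given beside these 3 to 10. With 5 genes called by edgeR and 95 by DESeq2, the 0 says nothing about the members. The A-B index of chromatin at the members was planned and not run, since genes were not placed on the assembly. Members under 10 counts limit what this depth can show.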
